A study of Mus with 6 samples.

Results

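The genes of the voltage-gated sodium and calcium channels were followed in mouse brain. They were taken by name: every gene of the platform's annotation table whose symbol is Scn, a number and a or b, or starts with Cacna, Cacnb or Cacng. This gave 35 genes of 19505 in all, each with a single probe set, and the rule uses no measured value. Genes of these families without a probe set under their symbol were not analysed here. Brain RNA of ICR mice, an outbred stock, was hybridised to 6 one-colour Affymetrix arrays, 2 for each of 3 groups. Mice of the CK group had ginsenoside compound K (CK) by gavage at 40 mg/kg together with intraperitoneal SCOP, which the labels call scopoletin hydrobromide, at 2 mg/kg. Mice of the SCOP group had SCOP alone at the same dose, as a model of memory impairment, and Control mice had 0.9% saline by gavage. The sources used here give no age or sex, and they do not say which part of the brain was taken or whether an array stands for 1 mouse or for a pool. The mice of all groups were killed after a step-down task in which they learned to avoid electric shocks.

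Voltage-gated sodium channels open on depolarisation and carry the rising phase of the action potential. Each has 1 large pore-forming alpha subunit, which sets the tissue and the compartment where the channel works, and small beta subunits that shape its gating and its place in the membrane. Calcium channels are built in the same way around an alpha1 subunit, with an extracellular alpha2delta subunit and a cytoplasmic beta subunit that bring the pore to the membrane. L-type pores couple electrical activity to gene expression and contraction, the P/Q-, N- and R-type pores trigger transmitter release, and T-type pores open near rest and drive burst firing. Most of the gamma subunits of the brain are known as partners of AMPA receptors, called TARPs, rather than as subunits of the calcium channel.

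Levels are on the log2 scale of RMA, and each change is a difference on that scale. Levels of different probe sets were not compared with each other. Each was read only against the dim level, the value that 95% of the negative controls on the same array stay under, which was 4.98 to 5.55. Across all genes SCOP replicate 2 correlated with the other arrays at 0.965 to 0.969, while those correlated among themselves at 0.990 to 0.993. Its GC-rich background probes (at least 16 G or C) averaged 6.10, against 4.99 to 5.19 elsewhere. The interquartile range of its gene values was 3.19, against 3.57 to 3.70 on the other arrays. Changes and counts of changes above 0 that use the SCOP arrays are therefore also given without this array. Counts of genes that do not overlap use all 6 arrays. Brain markers were present on every array, such as Slc17a7 for excitatory neurons (9.94 to 10.69), Mbp for myelin (11.22 to 11.50) and Gfap for astrocytes (7.39 to 7.85), all above the dim level.

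Of the 35 channel genes, 27 were above the dim level on at least 1 array and 8 were dim on all of them. At the 99th percentile of the negative controls, a stricter level, 21 would count as dim. The 8 genes include Scn10a and Scn11a, sodium channels of pain-sensing neurons, Cacna1s and Cacng1, subunits of the skeletal muscle calcium channel, and Cacna1f and Cacna2d4, which serve photoreceptor synapses. The others were Cacng6 and Scn7a, a sodium-sensing relative of the voltage-gated channels. Their values lay between 1.32 for Cacna1f and 4.09 for Cacng6. The marker lists of the same tissues were mostly dim too. All arrays were below the dim level for 9 of 11 skeletal muscle genes, 5 of 6 sensory ganglion genes and 5 of 6 photoreceptor genes, and 48.5% of all genes were dim on every array.

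**Figure D1:**
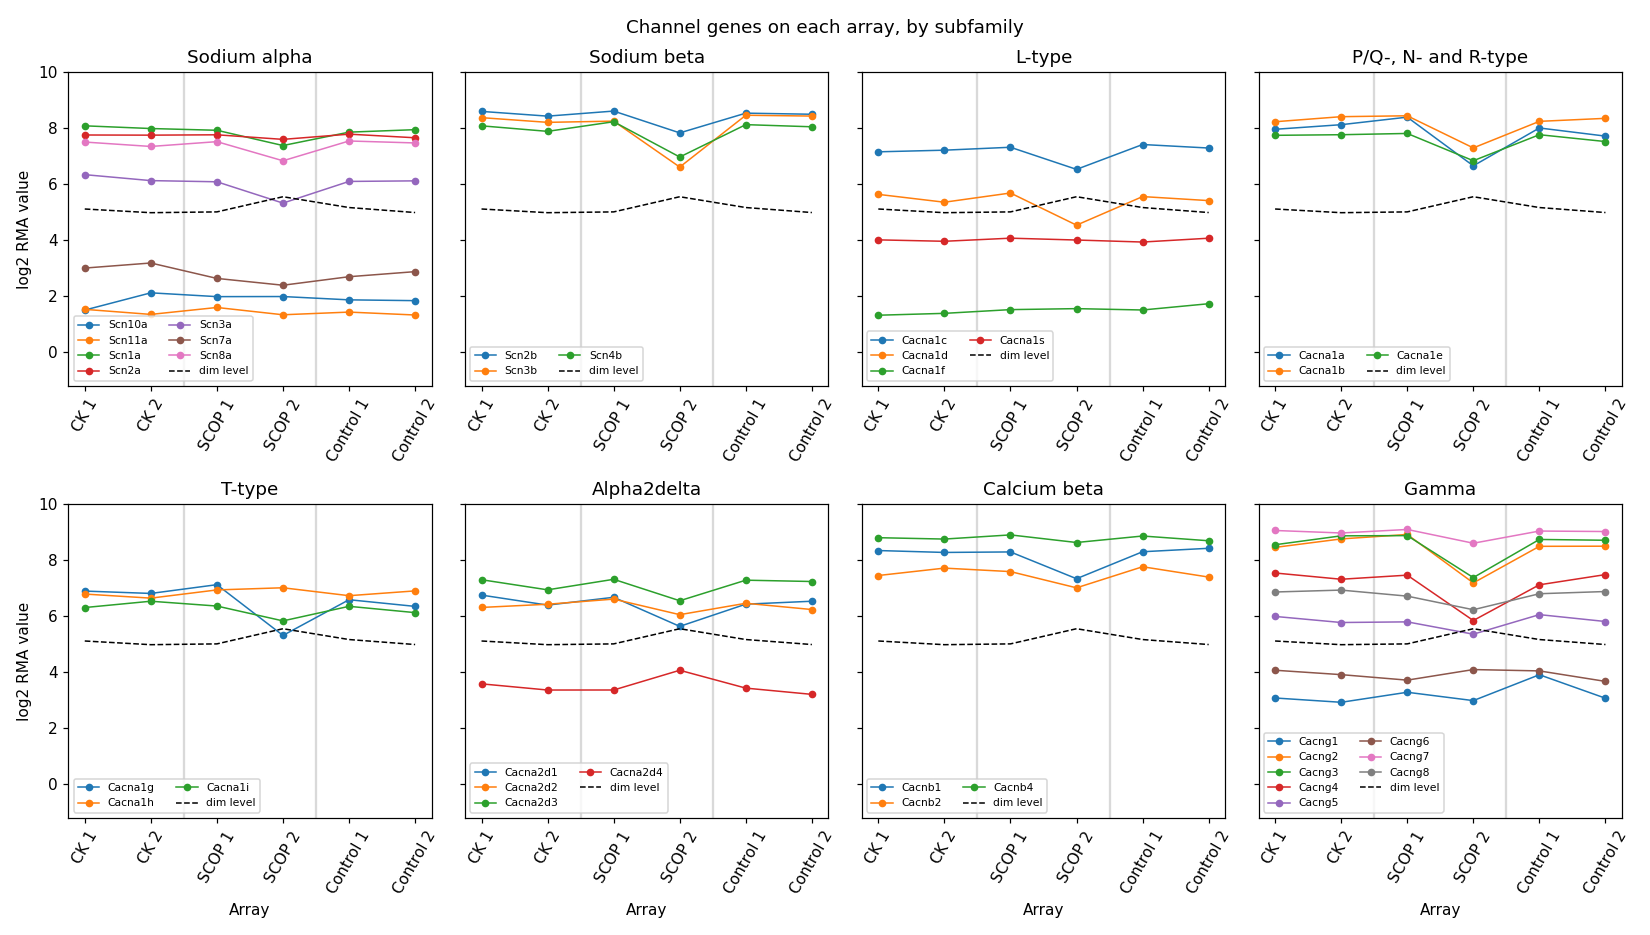
log2 RMA values of the 35 channel genes on each array, in a panel for each subfamily. Lines join the values of a gene and the dashed line is the dim level. Most lines dip at SCOP replicate 2, as for Scn3b with 6.61, and the 8 genes below the dim level stay there on every array.

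The clearest feature of these genes was their level on a single array. Of the 27 genes above the dim level, 26 had their lowest value of all 6 arrays on SCOP replicate 2, where 51.3% of the comparable genes did. Their median difference from the mean of the 4 CK and Control arrays was -0.74 on SCOP replicate 2, against -0.20 for the 10039 comparable genes. The exception was Cacna1h, a T-type pore named here after its values were seen, which was highest on that array. The count was 23 after quantile or cyclic loess normalization and 26 with array medians centred. In tissue RNA, fewer cells of a type and less RNA per cell cannot be told apart. The part of the higher background and narrower value range of SCOP replicate 2 was not tested.

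SCOP replicate 1 showed nothing of this kind. Its median difference from the CK and Control arrays was 0.098 over the same 27 genes. It lay above all 4 of those arrays for 14 genes (21.6% of comparable genes did), below all of them for 2 (18.4%) and among them for 11. The SCOP group therefore held arrays that differed more than those of the other groups. The median SD over the 27 genes was 0.55 in SCOP, against 0.12 in CK and 0.087 in Control (n = 2 arrays each). Over all comparable genes it was 0.30 in SCOP, against 0.084 in CK and 0.11 in Control.

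**Figure D2:**
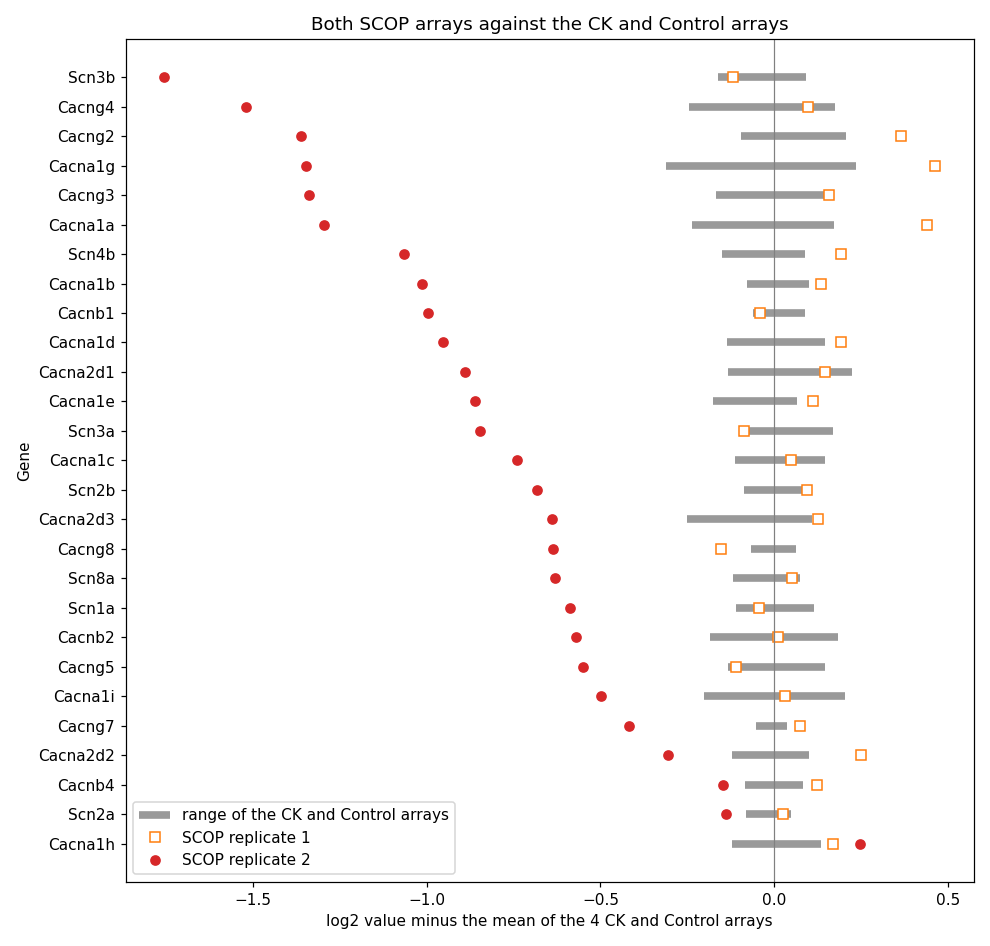
Difference of each SCOP array from the mean of the 4 CK and Control arrays, on the log2 scale, for the 27 channel genes above the dim level, with the range of those 4 arrays as a grey bar. SCOP replicate 2 runs from -1.76 for Scn3b to 0.25 for Cacna1h, while SCOP replicate 1 stays between -0.15 and 0.46.

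Among the sodium channel alpha genes, Scn1a, the channel of fast-spiking interneurons, read 8.08 and 7.98 in CK, 7.92 and 7.37 in SCOP and 7.85 and 7.94 in Control. Both CK arrays were above all the others. Scn3a, an alpha subunit best known from the embryonic brain, read 6.34 and 6.12 in CK, 6.08 and 5.32 in SCOP and 6.09 and 6.11 in Control. The value of 5.32 was below the dim level of its array, though above that of every other array. SCOP did not overlap with either of the other groups. Scn2a and Scn8a are the alpha subunits of the axon initial segment of excitatory neurons. On SCOP replicate 2, Scn2a differed least of the alpha genes above the dim level. Its difference from the CK and Control mean was -0.14, where Scn8a differed by -0.63. In RefSeq order Scn2a is the next coding gene after Scn3a, whose difference there was -0.85.

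Scn7a was dim everywhere, with 3.0 and 3.19 in CK, 2.64 and 2.39 in SCOP and 2.70 and 2.88 in Control. The CK arrays were above both other groups, and SCOP replicate 1 was low as well, by -0.31 from the CK and Control mean. It was the single channel gene with an unadjusted p under 0.05 in limma on all arrays, in CK against SCOP, with a log2 change of 0.58 (standard error 0.21, adjusted p of 0.89).

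The sodium channel beta subunits were all above the dim level. Scn3b, a beta subunit that binds the pore without a covalent bond, read 8.37 and 8.20 in CK, 8.24 and 6.61 in SCOP and 8.45 and 8.42 in Control. Its difference of -1.76 on SCOP replicate 2 was the largest of the family, and its SCOP arrays were also the only ones of a beta subunit that did not overlap with Control. Scn2b and Scn4b, the disulfide-linked beta subunits, lie next to each other in the genome. They differed on SCOP replicate 2 by -0.68 and -1.06, and on SCOP replicate 1 by 0.095 and 0.19.

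The L-type pores of neurons are encoded by Cacna1c and Cacna1d. Cacna1c read 7.15 and 7.21 in CK, 7.31 and 6.52 in SCOP and 7.41 and 7.28 in Control. Cacna1d read 5.63 and 5.35 in CK, 5.68 and 4.53 in SCOP and 5.55 and 5.41 in Control. In both genes SCOP replicate 2 was the lowest array, where Cacna1d was below the dim level, and for Cacna1c both CK arrays lay below both Control arrays.

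The P/Q-, N- and R-type pores of the presynaptic terminal shared 1 pattern. Cacna1a, the P/Q-type pore, read 7.95 and 8.12 in CK, 8.39 and 6.65 in SCOP and 8.0 and 7.71 in Control. Cacna1b, the N-type pore, read 8.22 and 8.40 in CK, 8.43 and 7.29 in SCOP and 8.24 and 8.34 in Control. For these genes and Cacna1e, the R-type pore, SCOP held both the highest and the lowest of the 6 arrays. On SCOP replicate 2 the differences were -1.29, -1.01 and -0.86 for Cacna1a, Cacna1b and Cacna1e, and on SCOP replicate 1 they were 0.44, 0.13 and 0.11.

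The T-type pores differed in their pattern. Cacna1g, the T-type pore of thalamic relay neurons, read 6.89 and 6.81 in CK, 7.12 and 5.31 in SCOP and 6.58 and 6.34 in Control. The SCOP arrays again held the extremes, and CK was above Control without overlap. The low SCOP value was under the dim level of its array, though above that of every other array. Cacna1h read 6.78 and 6.64 in CK, 6.93 and 7.01 in SCOP and 6.73 and 6.90 in Control, so that both SCOP arrays were above all the others. Cacna1i, the T-type pore of the thalamic reticular nucleus, differed by -0.50 on SCOP replicate 2 and by 0.032 on SCOP replicate 1.

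Of the alpha2delta genes, Cacna2d1, a binding site of gabapentin, read 6.75 and 6.39 in CK, 6.67 and 5.63 in SCOP and 6.42 and 6.53 in Control. Cacna2d3 read 7.30 and 6.93 in CK, 7.31 and 6.55 in SCOP and 7.28 and 7.23 in Control. The CK arrays of both genes were further apart than the Control arrays, with an SD of 0.252 in CK and 0.074 in Control for Cacna2d1, and of 0.255 in CK and 0.033 in Control for Cacna2d3. Cacna2d2, which also binds gabapentin, differed on SCOP replicate 2 by -0.31.

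The calcium channel beta subunits ranged widely. Cacnb1 read 8.34 and 8.27 in CK, 8.29 and 7.33 in SCOP and 8.29 and 8.42 in Control, and both SCOP arrays lay below both Control arrays, SCOP replicate 1 by less than the printed digits show. Cacnb4, whose loss causes ataxia and seizures in the lethargic mouse, read 8.79 and 8.74 in CK, 8.89 and 8.62 in SCOP and 8.85 and 8.68 in Control. Its difference on SCOP replicate 2 was -0.15, near that of Scn2a, while Cacnb2 differed by -0.57.

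Of the 8 gamma genes, 6 were above the dim level, and all of these are TARPs. Cacng4 read 7.53 and 7.31 in CK, 7.46 and 5.84 in SCOP and 7.11 and 7.48 in Control. Its neighbours in RefSeq order are Cacng1, dim on every array, and Cacng5. On SCOP replicate 2 Cacng5 differed by -0.55, against -1.52 for Cacng4. Cacng5 was below the dim level of that array, though above that of every other array. Cacng2, known as stargazin, and Cacng3 differed there by -1.36 and -1.34. Cacng7, Cacng8 and Cacng6 form another run of neighbours. Cacng7 and Cacng8 differed by -0.42 and -0.64, and Cacng8 was also low on SCOP replicate 1, by -0.15.

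In CK against SCOP, the comparison of compound K with SCOP alone, no channel gene passed an adjusted p under 0.05 (0% of all genes did). At an unadjusted p under 0.05, 1 of 35 had higher values in CK (1.14% of all genes) and 0 had lower values (1.43%). The change was above 0 for 28 of 35 genes (52.4% of all genes), with a median of 0.30, against 0.017 over all genes. The largest changes were in Scn3b, with 0.86 (standard error 0.45), Cacng4, with 0.77 (standard error 0.46), and Cacna1g, with 0.63 (standard error 0.49), and their adjusted p-values in limma were 0.89. Values did not overlap and were higher in CK for Scn1a, Scn3a, Scn7a and Cacng8, 4 of 35 genes (15.5% of all genes), and were lower for Cacna1f and Cacna1h, 2 of 35 (14.3%).

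Without SCOP replicate 2 the direction of that comparison turned. The change in CK against SCOP was then above 0 for 10 of 35 genes (50.8% of all genes) and the median was -0.096. It was 0.040 for Scn3b, -0.035 for Cacng4 and -0.27 for Cacna1g. At an unadjusted p under 0.05, 1 of 35 genes differed (3.76% of all genes), which was again Scn7a, with 0.46. Without SCOP replicate 1, when SCOP replicate 2 stands alone for its group, the median was 0.65 and 25 of 35 genes differed at an unadjusted p under 0.05 (34.5% of all genes). Of these, 18 had higher values at an adjusted p under 0.05 in limma, where 16.6% of all genes differed in either direction.

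In SCOP against Control, the comparison of the model with saline, no channel gene passed an adjusted p under 0.05 either (0% of all genes). At an unadjusted p under 0.05, 0 of 35 had higher values in SCOP (2.25% of all genes) and 0 lower (1.06%). The change was above 0 for 6 of 35 genes (50.1% of all genes), with a median of -0.32, against 0.00043 over all genes. The changes furthest below 0 were those of Scn3b, with -1.01 (standard error 0.45), Cacng4, with -0.65 (standard error 0.46), and Cacng3, with -0.60 (standard error 0.42), followed by Cacnb1, with -0.55 (standard error 0.30), and their adjusted p-values in limma were 0.86. Values in SCOP were higher without overlap for Scn10a and Cacna1h, 2 of 35 genes (15% of all genes). They were lower for Scn3a, Scn7a, Scn3b, Cacnb1, Cacng5 and Cacng8, 6 of 35 (13.3%).

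This direction also rested on SCOP replicate 2. Without it the change was above 0 for 25 of 35 genes (51.5% of all genes), with a median of 0.069. It was -0.19 for Scn3b, 0.16 for Cacng4 and -0.068 for Cacnb1. At an unadjusted p under 0.05, 2 of 35 genes differed (4.74% of all genes), Cacna1g with 0.66 and Cacna1a with 0.53, both higher in SCOP, and their adjusted p-values in limma were 0.98. Without SCOP replicate 1 the median was -0.61 and 23 of 35 genes differed at an unadjusted p under 0.05 (34.5% of all genes). Of these, 16 had lower and 1 had higher values at an adjusted p under 0.05 in limma, where 16.1% of all genes differed in either direction. The gene with higher values was Cacna2d4, dim on every array.

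**Figure D3:**
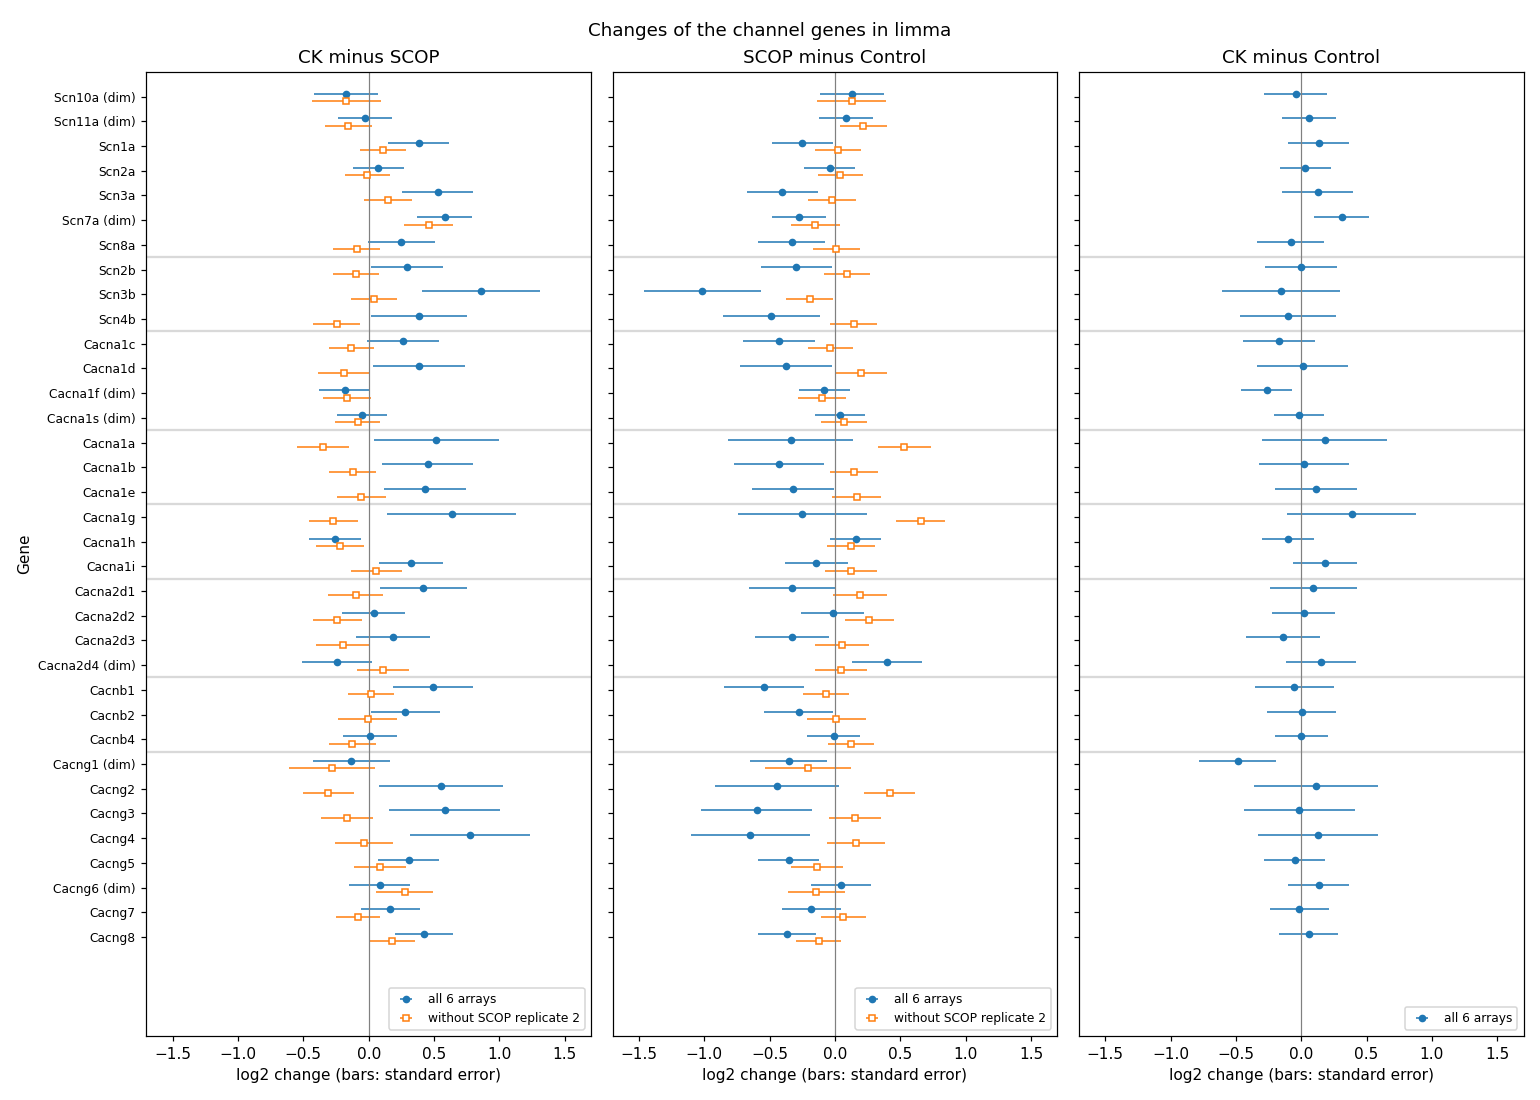
log2 changes of the 35 channel genes in the 3 comparisons, with standard errors from limma. Filled circles use all 6 arrays and open squares leave out SCOP replicate 2. In CK minus SCOP most circles lie right of 0 and the squares around it, with medians of 0.30 and -0.096, and in SCOP minus Control the medians are -0.32 and 0.069.

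CK against Control does not use the SCOP arrays for its changes, only for the shared spread. No channel gene passed an adjusted p under 0.05 (0% of all genes), and at an unadjusted p under 0.05 there were 0 of 35 higher (0.969% of all genes) and 0 lower (0.467%). The change was above 0 for 20 of 35 genes (53.2% of all genes), or for 12 with array medians centred (38.4% of all genes), and the median was 0.011. The largest in each subfamily among genes above the dim level were 0.38 for Cacna1g (standard error 0.49), 0.18 for Cacna1a (0.48), -0.17 for Cacna1c (0.27), -0.16 for Scn3b (0.45), -0.14 for Cacna2d3 (0.28), 0.13 for Scn1a (0.23), 0.13 for Cacng4 (0.46) and -0.053 for Cacnb1 (0.30). Values in CK were higher without overlap for Scn1a, Scn3a, Scn7a and Cacna1g, 4 of 35 genes (18.4% of all genes), and lower for Scn3b, Cacna1c and Cacna1f, 3 of 35 (15.7%). In the fit without SCOP replicate 2 the change of Cacna1g is the same, and its adjusted p was 0.93 in limma. Comparisons that share arrays were not set against each other.

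Proteins that anchor or regulate these channels, such as ankyrins, intracellular FGFs, calmodulins, neurofascin and the RIM proteins, were followed as a list of 32 measured genes. In CK against SCOP 24 had a change above 0 (52.4% of all genes), or 15 without SCOP replicate 2, and none passed an unadjusted p under 0.05 (1.14% of all genes higher, 1.43% lower). The median was 0.20. In SCOP against Control 6 had a change above 0 (50.1% of all genes), or 18 without SCOP replicate 2, with a median of -0.15, and 1 passed (2.25% of all genes higher, 1.06% lower). This was Stac, an adaptor of L-type channels, with a log2 change of 0.65 (adjusted p of 0.86 in limma) and dim on every array. Without SCOP replicate 2 both medians were nearer to 0, at -0.0040 and 0.025. Related pores and their subunits, among them the sodium leak channel, CatSper and the lysosomal 2-pore channels, gave 9 measured genes. Of these, 5 were dim on every array (48.5% of all genes). A change above 0 was seen for 5 in CK against SCOP (52.4% of all genes) and for 6 in SCOP against Control (50.1%). The medians were 0.031 and 0.053. Without SCOP replicate 2 these counts were 2 (50.8% of all genes) and 6 (51.5%), and the medians -0.095 and 0.039. Without SCOP replicate 1 the median in CK against SCOP was -0.099.

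Most lists of neuronal genes outside the family were also low on SCOP replicate 2. The 15 measured pan-neuronal and synaptic genes averaged 9.54 and 9.55 in CK, 9.54 and 8.71 in SCOP and 9.49 and 9.52 in Control. The 11 excitatory neuron genes averaged 8.29 and 8.41 in CK, 8.39 and 7.70 in SCOP and 8.32 and 8.39 in Control, and the 10 inhibitory neuron genes 7.39 and 7.42 in CK, 7.40 and 6.96 in SCOP and 7.50 and 7.48 in Control. SCOP replicate 2 was the lowest array for each of these lists. The 27 channel genes above the dim level averaged 7.51 and 7.46 in CK, 7.58 and 6.68 in SCOP and 7.49 and 7.43 in Control.

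Among the other cell types, SCOP replicate 2 was also the lowest array for endothelium, mural cells and oligodendrocyte precursors. The endothelial genes averaged 6.65 and 6.65 in CK, 6.77 and 6.01 in SCOP and 6.58 and 6.48 in Control, the mural cell genes 5.55 and 5.40 in CK, 5.59 and 4.97 in SCOP and 5.67 and 5.39 in Control, and the precursor genes 6.22 and 6.13 in CK, 6.08 and 5.47 in SCOP and 6.19 and 6.26 in Control. By list mean it was not the lowest for astrocytes, microglia or cerebellar neurons, nor for oligodendrocytes, the list of these with both SCOP arrays low. By the median deviation of the genes from their means over the 6 arrays, it was the lowest for microglia (-0.27) and astrocytes (-0.099). The 8 astrocyte genes averaged 8.55 and 8.42 in CK, 8.38 and 8.42 in SCOP and 8.36 and 8.52 in Control. The 9 oligodendrocyte genes averaged 8.20 on both SCOP arrays, against 8.23 to 8.51 on the CK and Control arrays, and the 8 microglia genes 5.84 on SCOP replicate 2 against 5.83 to 6.36 elsewhere. The 8 genes of cerebellar neurons were highest on SCOP replicate 2, at 8.57 against 8.22 to 8.47 elsewhere. No gene of the neuronal, astrocyte, oligodendrocyte and cerebellar lists was dim on every array, apart from 1 inhibitory neuron gene. Of the 6 mural cell genes, 2 were dim on every array. On SCOP replicate 2 the means of the mural cell and precursor lists were below the dim level of that array, 5.55. The part of tissue makeup, background and RNA quality in the low channel values was not tested.

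**Figure D4:**
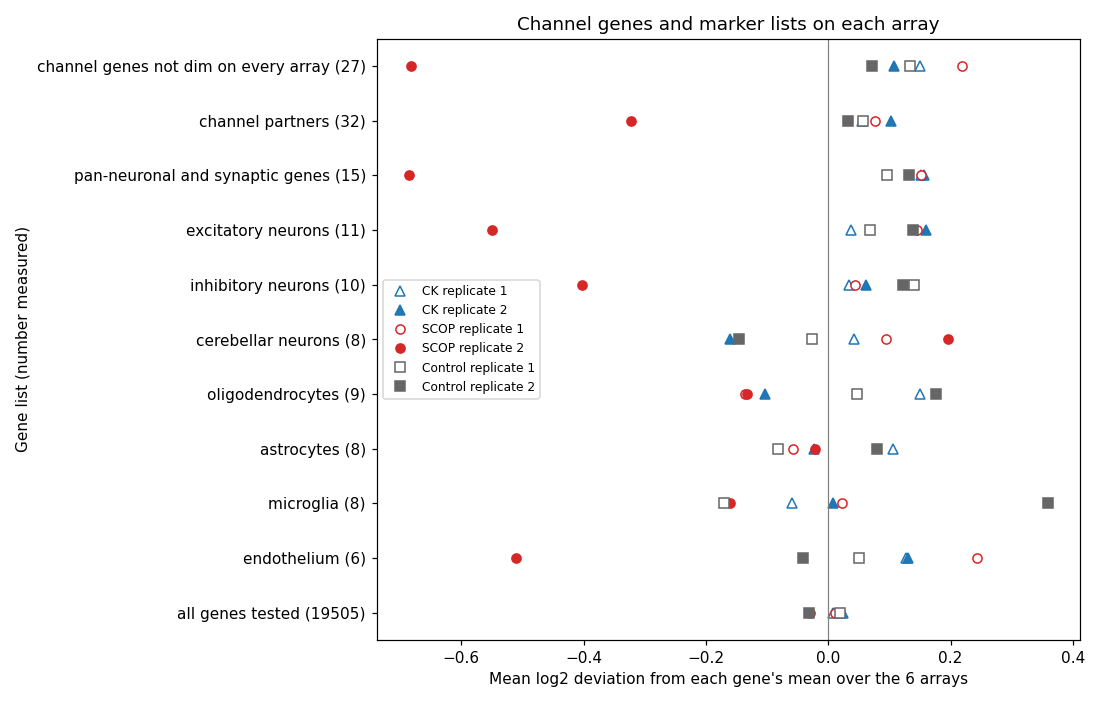
Mean log2 deviation of each gene list from the mean of its genes over the 6 arrays, with the number of genes measured in brackets. SCOP replicate 2 lies furthest to the left for the channel genes, the channel partners, the pan-neuronal, excitatory and inhibitory lists and endothelium. For the cerebellar list, at 0.20, it lies furthest to the right.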

How the data were processed

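Expression was deposited on the log2 scale for each probe set. The submitters' processing notes name RMA, with no version, and no genome build was found in the labels or the methods. RMA normalizes across arrays, so total RNA cannot be compared, and precision is limited by having 2 arrays a group. Of 22206 transcript probe sets, 19572 had 1 symbol in the platform annotation, 0 had several and 2634 had none. The probe set with the highest mean was kept per gene, and no dim gene was removed. Neighbouring genes were read from the RefSeq table of GRCm38.p6, where all 35 channel genes matched by Entrez identifier.

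A linear model of the group means over all 6 arrays was fitted in limma 3.58.1 under R 4.3.3 (empirical Bayes, 3 residual and 5.08 prior degrees of freedom), checked on simulated data, and p-values were adjusted over 19505 genes by Benjamini-Hochberg. An exact permutation test of 2 against 2 arrays cannot give a p below 0.333. The labels call the arrays of a group biological replicates. Genes given with every array value were, per subfamily and comparison, the one above the dim level with the largest change, plus any at an unadjusted p under 0.05; Cacna1h and Cacnb4 were added after their values were seen. The genes and lists were chosen with earlier results of these data known.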

Additional observations from a re-analysis of the deposited data

How the results depend on the processing

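Alternatives were other normalizations, filters on dim genes, means over probe sets, a trended or robust prior, array weights, a replicate block, only the arrays compared, the methods' t-test and each array left out. Array weights were equal within each group, at 0.34 for both SCOP arrays, so they could not down-weight SCOP replicate 2 alone. The normalization check of the genes lowest on SCOP replicate 2 was chosen after seeing the data. Leaving out a SCOP array changed the direction or the calls in both comparisons that use the SCOP group. In CK against Control, 20 channel genes had a change above 0 without either SCOP array and 15 without Control replicate 2. Over all arrays left out in turn, adjusted p-values under 0.05 in limma numbered 0 to 3240 in CK against SCOP and 0 to 3137 in SCOP against Control, and the highest count in each came without SCOP replicate 1. They were 0 under each other alternative and 0 in CK against Control. Channel genes at an unadjusted p under 0.05 numbered 0 to 25, 0 to 23 and 0 to 1 in CK against SCOP, SCOP against Control and CK against Control, against 1, 0 and 0 on all arrays. Without SCOP replicate 1, which gave the highest counts in the comparisons with SCOP, 34.5% of all genes were under 0.05 in each of them. They were 0 in CK against SCOP with either filter on dim genes, which removes Scn7a. They were 1 in SCOP against Control with medians centred, trend, array weights, the replicate block or the methods' t-test, and 1 in CK against Control with only the arrays compared.

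Channel genes with a change above 0 numbered 10 to 29 in CK against SCOP and 5 to 25 in SCOP against Control with an array left out. They were 1 of 27 with either filter in SCOP against Control, where fewer genes are tested, and 12 in CK against Control with medians centred. The median changes ran from -0.096 to 0.65 and from -0.61 to 0.069. Without SCOP replicate 2 they had the opposite sign, at -0.096 and 0.069, against 0.30 and -0.32 on all arrays.

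Among the genes picked for each comparison by largest change or unadjusted p, some changed sign with an array left out. Only these are listed, and genes outside this choice changed sign too. Without SCOP replicate 2 the count above 0 went from 28 to 10 in CK against SCOP and from 6 to 25 in SCOP against Control. In CK against SCOP the ranges were -0.19 to 0.96 for Cacna1d, -0.35 to 1.38 for Cacna1a, -0.27 to 1.54 for Cacna1g, -0.10 to 0.94 for Cacna2d1 and -0.035 to 1.58 for Cacng4. In SCOP against Control they were -1.0 to 0.14 for Cacna1b, -1.15 to 0.66 for Cacna1g, -0.71 to 0.055 for Cacna2d3 and -1.46 to 0.16 for Cacng4. In CK against Control they were -0.32 to 0.040 for Cacna2d3, -0.11 to 0.0089 for Cacnb1 and -0.054 to 0.31 for Cacng4. Where 1 array stood alone for its group, its spread was taken from the others. Same-numbered arrays of different groups did not deviate together (correlations of -0.028 to 0.024), so the numbers were not taken as pairs, and the replicate block changed no other count of calls by over 1.5 times.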
